A study of Mus musculus with 45 samples.

Results

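RNA sequencing of scaffolds from mice bearing 4T07 tumors was compared with that of scaffolds from mice bearing 67NR tumors, 3 libraries against 3. These 6 libraries, of the 45 in the study, were chosen by their labels alone: libraries 22, 23 and 24 are labelled 4T07 scaffold and libraries 10, 11 and 12 are labelled 67NR scaffold. The 67NR and 4T07 lines are sister lines of the mouse mammary carcinoma line 4T1. The 67NR line forms a primary tumor that does not spread, and 4T07 cells leave the tumor but do not form visible metastases. All mice were female Balb/c and carried a porous polycaprolactone disk under the skin of the back, a polymer implant that is filled by host cells and recruits immune and, at times, tumor cells. Mice of both groups then received cells of 1 line in a mammary fat pad, in the same number and volume of saline, and whole scaffolds were taken on day 14. Scaffolds of 3 healthy control mice and of 3 mice with 4T1 tumors were measured in the same way and are given here as a reference. In a whole explant, fewer cells of a type and less RNA per cell cannot be told apart.

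An implanted polymer provokes a foreign body response. Monocytes enter and become macrophages, some of which fuse into multinucleated giant cells, and fibroblasts lay down a collagen capsule. Tumors at a distance can drive the bone marrow to release immature myeloid cells, which carry the mRNAs of granule proteins such as elastase and myeloperoxidase that mature neutrophils no longer make. The comparison therefore addresses how the scaffold differs between mice with a tumor that stays in place and mice with a tumor whose cells leave it.

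The 6 libraries held between 5087455 counts (library 23) and 8175380 counts (library 22), and levels are given in CPM, the counts of a gene per 1000000 counts of its library. A count of 3 was worth between 0.367 and 0.590 CPM. Of 55367 gene symbols, 20011 had more than 10 counts over the 6 libraries and were tested. Calls required a fold change over 2 and, in the quasi-likelihood test of edgeR, a Benjamini-Hochberg adjusted p under 0.10. By this rule 616 genes (3.08%) were higher in 4T07 scaffolds and 688 (3.44%) were lower, 6.52% in all, and the median log2 fold change of all genes was 0.00. The CPM values of the groups did not overlap for 34.5% of the genes tested. When libraries were scaled by their totals only, 58.4% of the calls were higher in 4T07 scaffolds, compared with 47.2% here. Library 22 stood apart from libraries 23 and 24, with the summed level of 19 immature neutrophil genes at 1995 CPM compared with 512 and 384 CPM. Without library 22, 550 genes (2.90%) were higher and 740 (3.90%) lower, 6.80% in all, of which 404 and 532 had been called with it. Leaving out the 67NR library 11 left 375 genes higher and 491 lower, and no other of the 6 libraries changed either count by more than 1.5 times.

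The group labels were checked with 6 genes that earlier results had shown to be abundant in the 67NR primary tumors. Those called in scaffolds went against the labels. The groups did not overlap for 2 of the 6, compared with 34.5% of all genes. Rhox5, an X-linked homeobox gene that many tumor cells express, was at 653, 890 and 852 CPM in the 67NR primary tumors and at 19.3, 5.62 and 2.54 CPM in the 4T07 primary tumors. In scaffolds the order was the opposite. Rhox5 was at 47.5, 5.11 and 1.40 CPM in the 4T07 scaffolds (libraries 22, 23 and 24) and at 0.185, 0.321 and 0.164 CPM in the 67NR scaffolds (libraries 10, 11 and 12), with a log2 fold change of 6.12 (SE 1.48, adjusted p = 0.0198). All 3 control scaffolds had no counts of Rhox5, and the 4T1 scaffolds were at 13.7, 1.68 and 1.44 CPM. The summed level of the 6 genes was between 11.2 and 89.3 CPM in 4T07 scaffolds, between 9.34 and 28.4 CPM in 4T1 scaffolds, between 8.84 and 10.2 CPM in 67NR scaffolds and between 6.02 and 9.02 CPM in control scaffolds. Lungs and spleens showed the same direction as scaffolds: Rhox5 was between 9.33 and 40.9 CPM in 4T07 lungs and at most 0.579 CPM in 67NR lungs, and it was between 27.8 and 87.8 CPM in 4T07 spleens with no counts in 67NR spleens. Pnma5, which belongs to the paraneoplastic antigen family, was at 443, 342 and 302 CPM in the 67NR tumors and at 7.46, 0.393 and 0.466 CPM in the 4T07 scaffolds, against 1 count in the 3 67NR scaffolds together. Its counts gave a ratio of 59.5 with a 95% interval of 10.3 to 2384, an interval that covers counting error only. The call of Pnma5 was lost without any 1 of the 67NR libraries. In all, 5 of the 6 genes were higher in 4T07 scaffolds and none was lower, compared with 3.08% of all genes higher. Without library 22 only Rhox5 was called, at a log2 fold change of 3.65 (adjusted p = 0.0830). Of the others, 3 then had too few counts to be tested. None of the 3 testable genes of 5 that mark the 4T07 tumors was called in scaffolds. Groups are named by their labels throughout. An exchange of the 67NR and 4T07 labels of the scaffolds, lungs and spleens would turn the sign of each difference between these lines given here. An exchange of the labels of the primary tumors alone would turn none of them. Neither was tested.

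Granule genes of developing neutrophils were 6 of the 12 most raised genes named by size, with genes of skin and eosinophils among the others. They are shown with the DNA before their start sites because the members moved together. The sequences are the 200 bases before the annotated start in RefSeq (build GRCm38.p6), 5′ to 3′ on the strand of the gene, with matches to the C/EBP-type motif TTGCNNAA or its reverse TTNNGCAA in capitals.
Ngp (neutrophilic granule protein), chr9:110419608-110419807, plus strand: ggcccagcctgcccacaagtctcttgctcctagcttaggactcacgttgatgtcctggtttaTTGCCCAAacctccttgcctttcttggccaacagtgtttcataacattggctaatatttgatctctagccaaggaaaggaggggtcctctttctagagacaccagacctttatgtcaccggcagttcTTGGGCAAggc
Ltf (lactoferrin), chr9:111019092-111019291, plus strand: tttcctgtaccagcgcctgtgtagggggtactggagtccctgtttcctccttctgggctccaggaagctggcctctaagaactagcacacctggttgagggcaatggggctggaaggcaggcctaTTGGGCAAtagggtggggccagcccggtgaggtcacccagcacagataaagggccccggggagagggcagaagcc
Elane (neutrophil elastase), chr10:79886112-79886311, plus strand: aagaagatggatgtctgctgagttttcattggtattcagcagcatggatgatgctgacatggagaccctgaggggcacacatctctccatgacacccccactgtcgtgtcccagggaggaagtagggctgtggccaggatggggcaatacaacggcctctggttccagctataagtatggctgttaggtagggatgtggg
Ngp has matches that begin 138 and 11 bases before the start, Ltf has 1 that begins 75 bases before it, and Elane has none in this window. Of the 16 granule genes called, 15 had a promoter in the table and 4 of these had a match, against 8.55% of 27025 genes with a promoter. A match describes the letters of the window and was not tested as a binding site.

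Of 19 immature neutrophil genes tested, 16 were higher in 4T07 scaffolds and none was lower, compared with 3.08% of all genes higher. Elane was at 27.6, 3.54 and 2.17 CPM in the 4T07 scaffolds, and the 3 67NR scaffolds held 1 count in total, a ratio of 232 (95% counting interval 41.4 to 9217, adjusted p = 0.0121). Mpo, which encodes myeloperoxidase, was at 232, 40.9 and 24.4 CPM in the 4T07 scaffolds and at 0.924, 1.44 and 0.491 CPM in the 67NR scaffolds (log2 fold change 6.57, SE 1.02, adjusted p = 0.00177). Ngp was at 550.4, 134 and 74.6 CPM against 2.22, 2.57 and 0.819 CPM (6.97, SE 0.92, adjusted p = 0.00116). In each case the lowest 4T07 library lay above the highest 67NR library, and library 22 was the highest. Camp, the cathelicidin gene, was at 261, 56.4 and 21.7 CPM against 2.03, 0.802 and 0.328 CPM (6.67, SE 0.94, adjusted p = 0.00123). Ltf was at 145, 28.3 and 16.0 CPM against 0.739, 0.481 and 3.11 CPM (5.32, SE 0.84, adjusted p = 0.00190). Fcnb (ficolin B) and Ms4a3, a marker of granulocyte and monocyte progenitors, were higher as well, Fcnb by a log2 fold change of 6.41 (SE 1.04, adjusted p = 0.00214) and Ms4a3 with 389 counts in the 4T07 scaffolds against 2. The control scaffolds resembled the 67NR scaffolds in this list, and their summed level was between 119 and 269 CPM compared with between 163 and 191 CPM in 67NR scaffolds. The 4T1 scaffolds were between 362 and 704 CPM. All 19 members were highest in library 22 among the 4T07 libraries. Without it 14 of the 16 calls remained and 1 member was called lower. The median log2 fold change of the list was 3.76, and 2.6 without library 22.

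**Figure D1:**
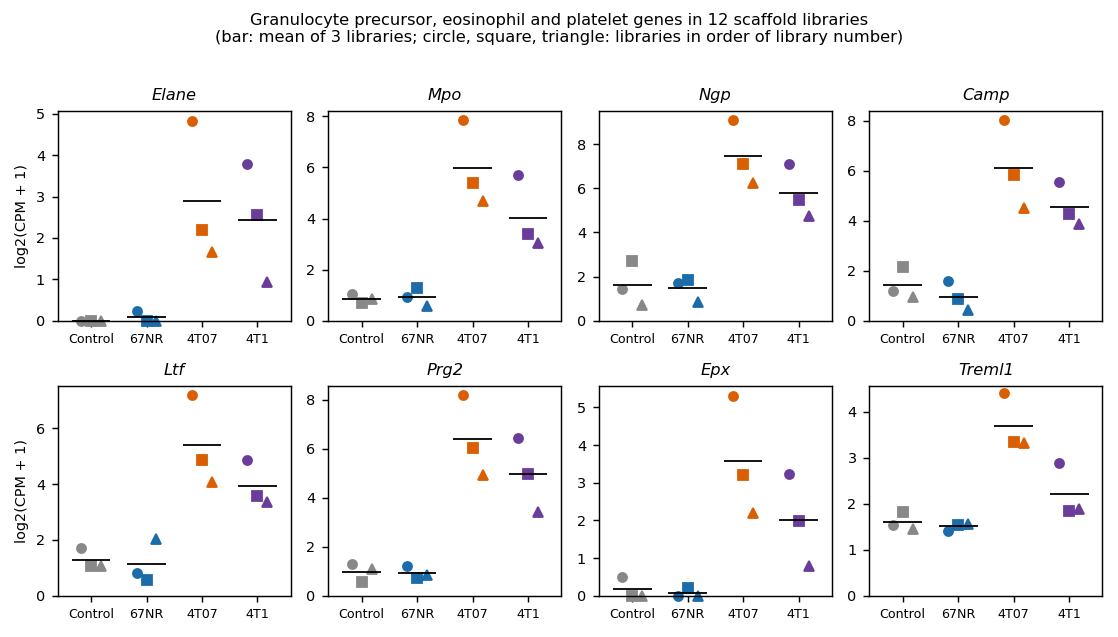
Levels of 8 genes in the 12 scaffold libraries as log2(CPM + 1), grouped by tumor line, with the mean of 3 libraries as a bar. For Elane, Mpo, Ngp, Camp, Ltf, Prg2, Epx and Treml1 each 4T07 library lies above each 67NR library, and library 22 (circle) is the highest.

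Genes that mature neutrophils express did not move as 1 group. Of 23 tested, 6 were higher and 5 lower in 4T07 scaffolds, compared with 3.08% of all genes higher and 3.44% lower. The median was -0.47, and 3 were higher and 4 lower without library 22. Stfa2, a stefin of the neutrophil cytosol with near-identical copies whose reads may have been split, was at 19.4, 8.84 and 11.5 CPM against 2.40, 2.41 and 1.64 CPM (log2 fold change 2.54, SE 0.61, adjusted p = 0.0155). Retnlg, a resistin-like secreted protein, was higher by 1.80 (SE 0.43, adjusted p = 0.0148). S100a8, a subunit of calprotectin, was at 3966, 952 and 832 CPM against 564, 562 and 494 CPM, and its call (1.73, SE 0.56, adjusted p = 0.0616) was lost without library 22, where the log2 fold change was 0.67 (adjusted p = 0.391), and without any 1 of the 67NR libraries. The 5 lower members were Cxcl2, Il1b, Clec4d, Il1r2 and Wfdc17. The summed level of the mature list was 9205 CPM in library 22, and 3546 and 3232 CPM in the other 4T07 scaffolds, within or just above the range of 2944 to 3440 CPM in 67NR scaffolds.

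Genes of other blood lineages were higher in 4T07 scaffolds too. Of 10 eosinophil genes, 5 were higher and none lower, compared with 3.08% of all genes higher. All 5 calls held without library 22, where 1 other member was called lower. Prg2, the eosinophil major basic protein, was at 290, 63.9 and 29.4 CPM in the 4T07 scaffolds and at 1.29, 0.642 and 0.819 CPM in the 67NR scaffolds (log2 fold change 7.01, SE 1.01, adjusted p = 0.00123). Epx, eosinophil peroxidase, was at 38.6, 8.26 and 3.57 CPM against 1 count in the 67NR scaffolds, a ratio of 343 (95% counting interval from 61.2, adjusted p = 0.00299). Alox15, a lipoxygenase of eosinophils and some macrophages, was at 11.7, 11.2 and 10.6 CPM against 4.07, 2.89 and 2.46 CPM (1.76, SE 0.25, adjusted p = 0.00123), so the 4T07 libraries were level for it. Mcpt8, a protease of basophils that stood in the mast cell list, was at 14.7, 3.54 and 2.48 CPM against 1 count in the 67NR scaffolds (adjusted p = 0.00845).

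Of 9 platelet and megakaryocyte genes, 7 were higher, compared with 3.08% of all genes, and 2 of the 7 were called without library 22. Treml1, a receptor of platelet granules, was at 20.4, 9.24 and 9.01 CPM against 1.66, 1.93 and 1.97 CPM (log2 fold change 2.71, SE 0.40, adjusted p = 0.00149), and its change was 2.23 (adjusted p = 0.00322) without library 22. Pf4, a chemokine of platelets that macrophages can also express, was at 275, 154 and 129 CPM against 294, 260 and 217 CPM, with a log2 fold change of -0.55 (adjusted p = 0.129). Of 17 erythroid genes, 7 were higher and none of these was called without library 22. Klf1, the erythroid transcription factor, was at 73.3, 13.6 and 6.37 CPM against 8.499, 5.62 and 3.44 CPM (2.33, SE 0.76, adjusted p = 0.0622), and its change was 0.71 (adjusted p = 0.528) without that library. Its call was also lost without any 1 of the 67NR libraries. The groups overlapped for Klf1. Of 72 genes of the cell cycle and replication, 5 were higher and none lower, compared with 3.08% of all genes higher, with a median of 0.54. Without library 22 none was called and the median was -0.02. Cdt1, a replication licensing factor, was at 115, 77.2 and 69.9 CPM against 34.2, 37.2 and 37.2 CPM (1.19, SE 0.22, adjusted p = 0.00440). Its groups stayed apart without library 22, but at 0.97 (adjusted p = 0.0147) the change fell under the fold limit. Vpreb1, a surrogate light chain of B cell precursors that was chosen after its values were seen, was at 23.0, 4.52 and 2.64 CPM against 0.924, 0.642 and 0.655 CPM (3.67, SE 0.76, adjusted p = 0.00718).

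Summed markers of skin and muscle, tissues next to the implant, were highest in library 22 among the 4T07 scaffolds. They are given as a measure of what the explants held. Of 25 keratinocyte genes, 11 were higher in 4T07 scaffolds, compared with 3.08% of all genes, and 4 were without library 22. Their summed level was 497 CPM in library 22, 134 and 82.0 CPM in the other 4T07 scaffolds and between 47.3 and 117 CPM in 67NR scaffolds. Flg2, a filaggrin of the skin barrier, was at 29.7, 2.36 and 0.155 CPM with no counts in 67NR scaffolds, at least 76.9-fold higher against a floor of 3 counts over the group (adjusted p = 0.0151). Lor (loricrin) had 275 counts in the 4T07 scaffolds and 1 in the 67NR scaffolds. Of 22 skeletal muscle genes, 3 were higher and none without library 22. Their summed level ranged between 522 and 1176 CPM in 4T07 and between 81.1 and 800.2 CPM in 67NR scaffolds. It was 61.0, 1038 and 1015 CPM in the control scaffolds, so library 22 did not stand apart from all scaffolds for muscle. The part of these tissues in other differences was not tested.

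**Figure D2:**
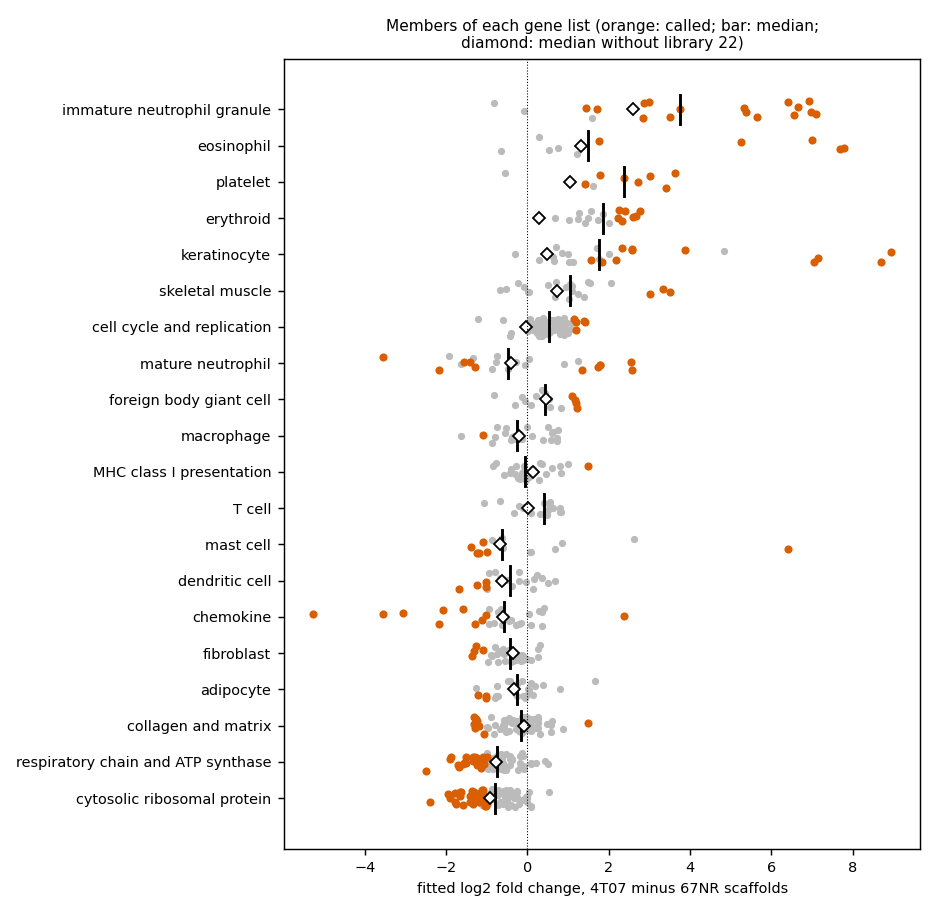
Fitted log2 fold change (4T07 minus 67NR scaffolds, x axis) of each tested member of 20 gene lists (rows), with called members in orange, the median as a bar and the median without library 22 as a diamond. The medians of the erythroid and cell cycle lists fall from 1.86 to 0.29 and from 0.54 to -0.02 without library 22, those of the respiratory chain and ribosomal protein lists stay at -0.76 and -0.93, and most points beyond 7 are genes with 0 or 1 count in 67NR scaffolds, whose fitted value is no measured fold.

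Some chemokines and the cytokine gene Il1b were lower in 4T07 scaffolds. Of 32 chemokine genes tested, 9 were lower and 1 was higher, compared with 3.44% of all genes lower, and 7 were lower without library 22. Cxcl2, which attracts neutrophils, was at 21.4, 50.1 and 54.5 CPM in 4T07 scaffolds and at 409, 477 and 526 CPM in 67NR scaffolds (log2 fold change -3.56, SE 0.88, adjusted p = 0.0183). The groups were far apart, but the reference scaffolds were not uniform. Cxcl2 was at 78.9, 697 and 53.4 CPM in the 3 control scaffolds and at 72.2, 574 and 106 CPM in the 4T1 scaffolds. Il1b, which encodes the cytokine interleukin 1 beta, was at 49.9, 74.5 and 133 CPM against 372, 365 and 377 CPM (-2.18, SE 0.64, adjusted p = 0.0424), and was at 90.4, 618 and 54.6 CPM in control scaffolds. Its call was lost without library 22 (-1.89, adjusted p = 0.117) and without library 23. Ptgs2, the inducible cyclooxygenase, was at 3.42, 4.72 and 5.75 CPM against 24.8, 23.1 and 34.1 CPM (-2.64, SE 0.85, adjusted p = 0.0589), and its call was lost without any 1 of the 6 libraries, with an adjusted p of 0.143 at most. Hcar2, a receptor of ketone bodies and niacin on neutrophils and macrophages, was at 12.5, 23.0 and 37.9 CPM against 190, 147 and 134 CPM (-2.76, SE 0.76, adjusted p = 0.0314). For these 4 genes all 67NR libraries were high and all 4T07 libraries low, while 1 control and 1 4T1 library were near or above the 67NR level and the rest were below it.

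The chemokine genes are shown with the 200 bases before their starts (RefSeq, GRCm38.p6) because 4 of the 7 lower members with a promoter in the table, Ccl20, Cxcl1, Cxcl2 and Cxcl3, matched a kB-type motif, GGG and TTTCC with any 2 bases between them or the reverse complement, against 1.37% of genes. The letters that match are in capitals.
Cxcl2, chr5:90903699-90903898, plus strand: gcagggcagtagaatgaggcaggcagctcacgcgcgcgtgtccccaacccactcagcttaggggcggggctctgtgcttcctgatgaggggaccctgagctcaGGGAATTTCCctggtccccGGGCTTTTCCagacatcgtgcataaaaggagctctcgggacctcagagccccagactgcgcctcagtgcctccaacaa
Cxcl3, chr5:90785901-90786100, plus strand: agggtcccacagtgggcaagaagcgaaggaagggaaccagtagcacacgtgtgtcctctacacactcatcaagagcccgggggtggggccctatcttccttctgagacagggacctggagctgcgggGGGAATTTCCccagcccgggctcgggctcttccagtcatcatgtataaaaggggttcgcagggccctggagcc
Il1b, chr2:129371140-129371339, minus strand: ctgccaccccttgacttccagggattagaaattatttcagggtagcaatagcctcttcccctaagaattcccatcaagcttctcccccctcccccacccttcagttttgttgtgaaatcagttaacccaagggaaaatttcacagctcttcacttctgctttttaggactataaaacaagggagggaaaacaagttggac
The window of Il1b and those of the other 5 lower interleukin genes held no match. Cxcl1, Cxcl2 and Cxcl3 share a gene cluster and ancestry, so their windows are not independent. Matches were not counted in the chemokine genes that were not called, so the share may belong to the family whatever its change. A match was not tested as a binding site.

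**Figure D3:**
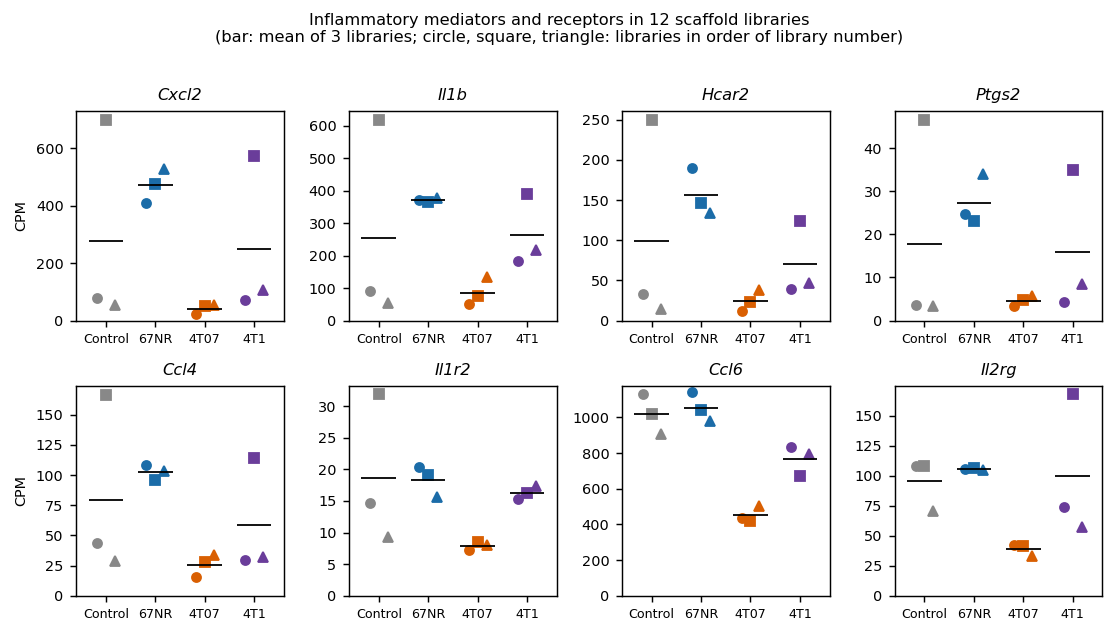
CPM of 8 inflammatory genes in the 12 scaffold libraries, with the mean of 3 libraries as a bar. Each 67NR library lies above each 4T07 library for all 8 genes, and for Cxcl2, Il1b, Hcar2, Ptgs2 and Ccl4 1 control and 1 4T1 library (squares) are far from the other libraries of their group.

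Other immune genes were lower in 4T07 scaffolds too. Ccl6, a chemokine of macrophages and neutrophils, was at 438, 418 and 506 CPM against 1142, 1043 and 981 CPM (log2 fold change -1.29, SE 0.18, adjusted p = 0.00120), and control scaffolds were between 910 and 1134 CPM. Il2rg, the common gamma chain shared by several interleukin receptors, was at 42.6, 41.7 and 33.4 CPM against 106, 106 and 105 CPM (-1.51, SE 0.30, adjusted p = 0.00552). Neither gene lost its call in any alternative setting run. Il1r2, the decoy receptor of interleukin 1, was lower by 1.29 on the log2 scale (SE 0.33, adjusted p = 0.0233). Ccl11, the eosinophil attractant eotaxin, was at 3.67, 5.11 and 7.92 CPM against 13.5, 25.8 and 32.1 CPM (-2.18, SE 0.51, adjusted p = 0.0139), and so lay in the opposite direction to the eosinophil genes. Ccl4 was lower as well (-2.06, SE 0.57, adjusted p = 0.0320). Of 44 interleukin and receptor genes, 6 were lower, compared with 3.44% of all genes, and none was higher. C5ar1, the receptor of complement C5a, was at 6.36, 7.27 and 7.30 CPM against 17.2, 22.0 and 19.2 CPM (-1.56, SE 0.28, adjusted p = 0.00353).

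Of 20 dendritic cell genes, 4 were lower (Il12b, Ccr7, Ccl22 and Cd209d), compared with 3.44% of all genes, and none was higher. Il12b, a subunit of interleukin 12, was at 1.96, 0.786 and 1.40 CPM against 4.99, 4.65 and 3.44 CPM (-1.67, SE 0.34, adjusted p = 0.00619). Ccr7, which guides mature dendritic cells to lymph nodes, was at 3.55, 1.38 and 1.24 CPM against 4.99, 5.94 and 3.44 CPM (-1.24, SE 0.41, adjusted p = 0.0633), with groups that overlapped. The calls of Ccr7, Ccl22 and Cd209d were lost without some single libraries, at adjusted p values of up to 0.214, 0.199 and 0.191. Itgax, the integrin CD11c of dendritic cells and macrophages, was at 608, 769 and 839 CPM against 446, 445 and 421 CPM, a log2 fold change of 0.68 (adjusted p = 0.0193) that was under the fold limit.

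Mast cell proteases were lower in 4T07 scaffolds. Of 14 genes in the mast cell list, 5 were lower, compared with 3.44% of all genes, and the 1 that was higher was the basophil protease Mcpt8. Cma1 (chymase) was at 7.58, 4.72 and 5.90 CPM against 15.9, 16.0 and 14.1 CPM (log2 fold change -1.40, SE 0.26, adjusted p = 0.00386). Cpa3 (carboxypeptidase A3) was at 15.2, 10.6 and 10.4 CPM against 23.3, 27.4 and 28.5 CPM (-1.20, SE 0.19, adjusted p = 0.00191), and Tpsab1 (tryptase) was lower by 1.25 on the log2 scale (SE 0.25, adjusted p = 0.00630). The calls of Tpsb2 and Mcpt4 were lost without library 22, at log2 fold changes of -0.87 and -0.96, and without library 10. The 3 control scaffolds were between 13.2 and 20.6 CPM for Cma1, near the 67NR scaffolds. The summed level of the list did not place them so, at 196.1, 391.4 and 165.8 CPM in control scaffolds. It was between 160 and 219.2 CPM in 4T07 scaffolds and between 280.5 and 335.3 CPM in 67NR scaffolds.

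Of the macrophage genes 1 was called, compared with 6.52% of all genes, whereas some genes of fused giant cells were higher in 4T07 scaffolds. The summed macrophage list was between 17630 and 22740 CPM in 4T07 and between 15450 and 16980 CPM in 67NR scaffolds. Even so, 17 of the 26 macrophage genes had a fold change below 0. Of 26 macrophage genes, 1 was lower (Fcrls, an Fc receptor-like gene, -1.10, SE 0.31, adjusted p = 0.0343) and none was higher, and the call of Fcrls was lost without library 24 or library 11, at an adjusted p of 0.126 at most. Gpnmb, a glycoprotein of lipid-laden macrophages, was at 7157, 9616 and 9871 CPM against 5572, 6051 and 6354 CPM (0.50, adjusted p = 0.119). Of 15 giant cell genes, 4 were higher, compared with 3.08% of all genes. The summed giant cell list overlapped, between 7623 and 10860 CPM in 4T07 and between 6986 and 8763 CPM in 67NR scaffolds. Dcstamp, which is needed for the fusion of macrophages and osteoclasts, was at 107, 142 and 101 CPM in 4T07 scaffolds and at 44.7, 53.6 and 43.4 CPM in 67NR scaffolds (1.23, SE 0.22, adjusted p = 0.00313). Nfatc1, the master transcription factor of osteoclasts, was at 129, 144 and 139 CPM against 57.5, 56.5 and 59.0 CPM (1.18, SE 0.16, adjusted p = 0.00120). Rufy4 was higher by 1.19 (SE 0.19, adjusted p = 0.00201). These 3 genes were called in every alternative setting in which they were tested, and Oscar was not. Ctsk, a protease of osteoclasts and giant cells, did not pass the test (-0.14, adjusted p = 0.772). Of 18 monocyte genes, 12 had a fold change below 0 and none was called lower, with a median of -0.20 and a summed level between 3717 and 4151 CPM in 4T07 and between 5400 and 5549 CPM in 67NR scaffolds. The 1 called was Fcgr4, an activating Fc receptor, at 73.9, 97.1 and 136 CPM against 44.5, 41.1 and 42.4 CPM (1.19, SE 0.19, adjusted p = 0.00207). Without library 24 its change was under the fold limit at 0.93. Csf2ra, a chain of the receptor of granulocyte-macrophage colony-stimulating factor, was at 337, 395 and 354 CPM against 143, 171 and 168 CPM (1.10, SE 0.27, adjusted p = 0.0195). Arg1, the arginase of alternatively activated macrophages, was at 2.32, 14.2 and 21.9 CPM against 2.77, 4.49 and 3.11 CPM (1.80, SE 0.54, adjusted p = 0.0464). Library 22 was within the 67NR range for Arg1, the reverse of the granule genes, and its call was lost without library 23, 24, 10 or 12 (adjusted p of 0.234 at most).

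The counts of antigen presentation, interferon and lymphocyte genes called stand beside 3.08% of all genes higher and 3.44% lower. Of 18 class II genes, 1 was higher and 1 lower. Tap1, the peptide transporter of the class I pathway, was at 84.4, 93.2 and 134 CPM against 42.3, 29.7 and 32.7 CPM (SE 0.25 on the log2 scale, adjusted p = 0.00259), with a log2 fold change between 1.27 and 1.66 over the alternative settings, and it was the 1 member called of 26 class I genes. H2-D1 was at 1728, 2295 and 2255 CPM against 967, 1113 and 1327 CPM (0.81, SE 0.22, adjusted p = 0.0266), under the fold limit and with copies among the class I genes that may share reads. Cd74, the class II invariant chain, was at 203, 202 and 236 CPM against 94.6, 95.8 and 84.0 CPM (1.15, SE 0.22, adjusted p = 0.00453). Of 52 interferon-stimulated genes, 1 was higher and 4 were lower with a median of 0.00, and of 30 genes of the interferon gamma and guanylate-binding list 1 was higher. The lower ones included Ifitm3, a restriction factor of viral entry, at 178, 129 and 122 CPM against 442, 268 and 259 CPM (-1.26, SE 0.26, adjusted p = 0.00758), whose change without library 10 was under the fold limit. None of 22 T cell genes and none of 20 cytotoxic T and natural killer cell genes was called. Gzma (granzyme A), for example, was at 35.7, 24.8 and 19.9 CPM against 24.8, 28.2 and 21.3 CPM (0.04, adjusted p = 0.943). Of 27 genes of B and plasma cells, 1 was higher and 1 lower, with a median of 0.75 that was -0.26 without library 22. Ighg1, an IgG heavy chain, was at 7.95, 0.786 and 1.40 CPM against 0.924, 0.642 and 0.655 CPM (log2 fold change 2.14, SE 0.73, adjusted p = 0.0732), with overlapping groups and a change of 0.53 (adjusted p = 0.656) without library 22. Its call was also lost without any 1 of the 67NR libraries. Igha, the heavy chain of IgA, was at 12.8, 5.70 and 8.23 CPM against 21.2, 32.9 and 26.7 CPM (-1.66, SE 0.32, adjusted p = 0.00493).

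A few fibroblast genes were lower in 4T07 scaffolds. Of 30 fibroblast genes, 4 were lower, compared with 3.44% of all genes, and none was higher. All 4 called genes were lower without library 22. Clec3b (tetranectin) was at 295, 262 and 284 CPM against 653, 718 and 674 CPM (log2 fold change -1.36, SE 0.19, adjusted p = 0.00120). Col14a1, a collagen that binds fibrils, was at 75.1, 77.8 and 93.5 CPM against 192, 208 and 184 CPM (-1.32, SE 0.17, adjusted p = 0.00116). Dpt (dermatopontin) was at 131, 125 and 148 CPM against 328, 280.0 and 314 CPM (-1.27, SE 0.17, adjusted p = 0.00116). The control scaffolds were above the 4T07 scaffolds for these genes, with Clec3b between 521 and 605 CPM. By contrast Col1a1 was at 2471, 3395 and 3358 CPM against 3017, 3297 and 3123 CPM, and its log2 fold change of -0.10 (SE 0.19, adjusted p = 0.788) was within the spread. Of 66 collagen and matrix genes, 7 were lower and 1 (Col6a5) was higher. Serpinh1, the collagen chaperone HSP47, was at 125, 156 and 113 CPM against 308, 300.5 and 302 CPM (-1.29, SE 0.18, adjusted p = 0.00120), and the small leucine-rich proteoglycans Aspn and Ogn were lower by 1.31 and 1.27 on the log2 scale. Dpp4 and Scara5, which mark progenitors among fibroblasts and were chosen after their values were seen, were lower by 1.82 (SE 0.25, adjusted p = 0.00116) and 1.94 (SE 0.24, adjusted p = 0.00114). Of 25 adipocyte genes, 3 were lower. Fabp4, a fatty acid carrier, was at 288, 284 and 232 CPM against 584, 429 and 531 CPM (-1.02, SE 0.18, adjusted p = 0.00353), and its change fell under the fold limit without library 24 (-0.92), 10 (-0.91) or 12, and with a term for transcript length in the fit (-0.73). The call of Adipoq was lost without library 23, 24 or 12, with a change of -0.45 (adjusted p = 0.295) without library 12.

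**Figure D4:**
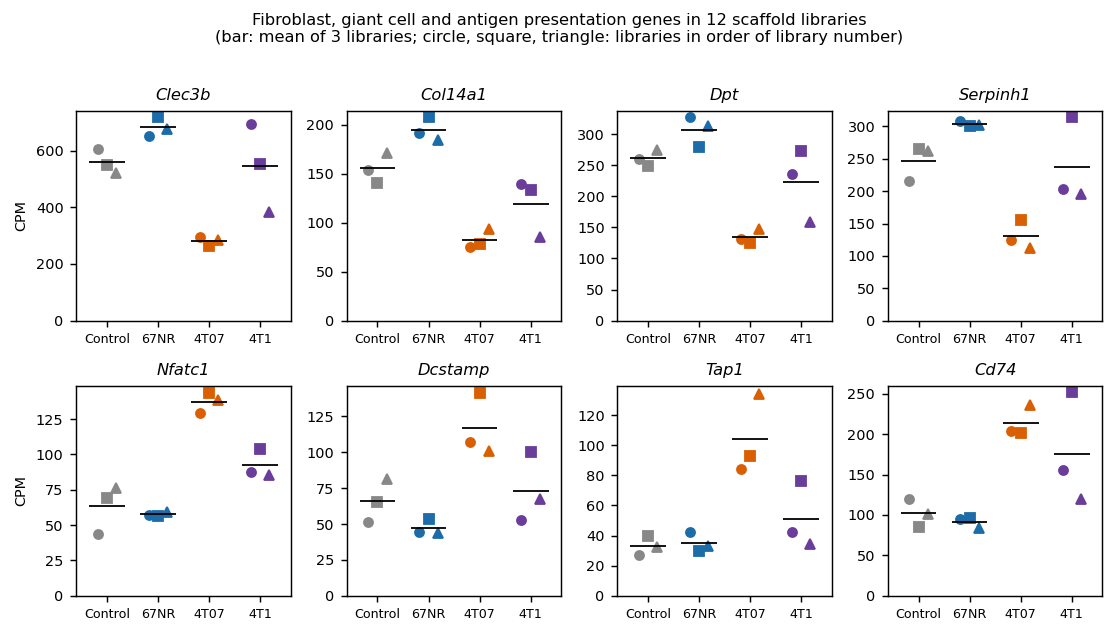
CPM of 8 genes of fibroblasts, giant cells and antigen presentation in the 12 scaffold libraries, with the mean of 3 libraries as a bar. Each 4T07 library lies below each 67NR library for Clec3b, Col14a1, Dpt and Serpinh1 and above each for Nfatc1, Dcstamp, Tap1 and Cd74.

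Members of the respiratory chain and ribosomal protein lists were lower in 4T07 scaffolds. Of 74 genes of the respiratory chain and ATP synthase, 22 were lower and none was higher, with a median of -0.74. Of 76 cytosolic ribosomal protein genes 31 were lower and none higher, with a median of -0.80. The share of all genes that were lower was 3.44%. Ndufa1, a subunit of complex I, was at 128, 117 and 94.6 CPM against 404, 405 and 398 CPM (log2 fold change -1.91, SE 0.18, adjusted p = 2.35e-04). Atp5j, a coupling factor of ATP synthase, was at 85.1, 50.1 and 32.2 CPM against 239, 178 and 163 CPM (-1.87, SE 0.35, adjusted p = 0.00457). Rps16 was at 318, 165 and 86.4 CPM against 701, 640.2 and 507 CPM (-1.79, SE 0.34, adjusted p = 0.00458). Ftl1, the ferritin light chain that stores iron, was at 102, 97.3 and 29.8 CPM against 427, 374 and 388 CPM (-2.45, SE 0.43, adjusted p = 0.00310), and Fth1, the heavy chain, which was chosen after its values were seen, fell by 1.48 on the log2 scale (SE 0.22, adjusted p = 0.00138). Ribosomal proteins, ferritin and Gapdh (-1.58, SE 0.30, adjusted p = 0.00491) have many near-identical pseudogene copies, and how reads that match several copies were counted is not given in the sources used here, so the values of these genes are uncertain. Without library 22 the lists had 30 and 36 lower members.

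Other measures moved with these lists. Transcripts encoded by mitochondrial DNA made up between 6.55% and 6.94% of counts in 4T07 scaffolds and between 8.36% and 9.03% in 67NR scaffolds, and mt-Rnr1, the small mitochondrial ribosomal RNA, was lower by 1.10 on the log2 scale (SE 0.24, adjusted p = 0.0104), a change that was 0.97 without library 23. The fold changes also followed transcript length, with the members of these lists kept among the genes binned by length. The median lengths of the respiratory chain and ribosomal protein lists were 686.5 and 723.5 bases, and the shortest bin ended at 854 bases. The lists and the bins therefore share genes, and the length term given below was fitted with these genes too. Over 9199 genes with a mean of at least 5 CPM and a known length, 83.5% of the genes at that level, the median log2 fold change was -0.24 in the shortest of 10 equal bins and 0.10 in the longest, and 11.5% and 1.3% of genes in these bins were called lower. With a length term in the fit, which was added after seeing the data, 12 respiratory chain and 18 ribosomal protein genes were lower, with medians of -0.52 and -0.56, when 3.05% of all genes were lower and 6.17% were called in either direction. In the control scaffolds the summed level of the respiratory chain list, 20050 to 21140 CPM, was close to or above that of the 67NR scaffolds, 17770 to 20510 CPM, whereas the 4T07 scaffolds were between 10750 and 13810 CPM. The 4T1 scaffolds were at 15850, 11780 and 17450 CPM, and the library at 11780 CPM, within the 4T07 range, also had the lowest mitochondrial share of them, 6.51% compared with 7.98% and 8.15%.

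**Figure D5:**
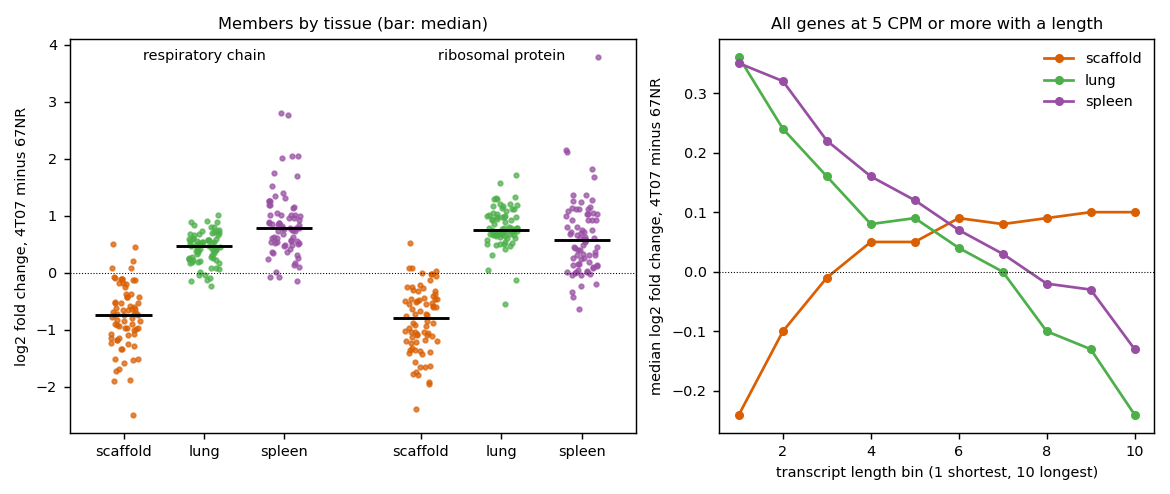
Left, log2 fold change of 4T07 minus 67NR (y axis) for each respiratory chain and ribosomal protein gene in scaffolds, lungs and spleens, with the median as a bar. Right, median log2 fold change of genes in 10 bins of transcript length from shortest to longest. The scaffold medians of -0.74 and -0.80 lie below 0 and those of lungs (0.46 and 0.76) and spleens (0.78 and 0.58) above it, and the scaffold line rises with length from -0.24 to 0.10 where the other lines fall.

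Further genes came from the rule on size alone. Trappc3, a subunit of a vesicle tethering complex, was at 36.6, 38.9 and 29.5 CPM in 4T07 and at 111, 191 and 164 CPM in 67NR scaffolds (log2 fold change -2.23, SE 0.22, adjusted p = 2.82e-04), and control scaffolds were between 139 and 156 CPM. Timm8b, a chaperone of the mitochondrial intermembrane space, was at 12.2, 5.70 and 2.95 CPM against 37.0, 33.5 and 28.5 CPM (-2.29, SE 0.40, adjusted p = 0.00296). The remaining genes of the 12 most lowered were Rpl10-ps2, Rpl22l1, Gm28438, Ndufb6 and Gm14221, at log2 fold changes of -3.95, -2.80, -2.49, -2.49 and -2.39, and 2210010C04Rik completed the 12 most raised at 5.67. Among genes that rose with little spread between libraries, Dot1l, a histone H3 lysine methyltransferase, was at 243, 321 and 263 CPM against 87.9, 90.8 and 92.5 CPM (1.54, SE 0.21, adjusted p = 0.00116), and Slc45a3, a sugar transporter, was higher by 1.58 (SE 0.20, adjusted p = 0.00114). Both were chosen after their values were seen.

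Gene signatures that the study had used in scaffolds were read in this comparison. They were chosen from scaffolds, the second one on these samples, and are not independent evidence of a direction. Of 9 measured genes of the earlier 10-gene signature, 7 were higher in 4T07 scaffolds and 2 (Ccr7 and Ccl22) were lower. The higher ones included Elane, Camp, Ltf, S100a8 and S100a9 as well as Chil3, a chitinase-like protein of myeloid cells, which was at 28.6, 5.50 and 3.42 CPM against 1.85, 1.28 and 1.80 CPM (log2 fold change 2.85, SE 0.64, adjusted p = 0.0114). Without library 22, 4 were higher and 1 was lower. The paper made the 9-gene signature to separate 4T1 scaffolds from those of the other groups, which include both lines compared here. It was not made for this comparison, so the calls here are no test of it. None of the 9-gene signature was called. Its largest changes were those of Soga1 (0.97, SE 0.16, adjusted p = 0.00216), at 48.4, 44.6 and 40.4 CPM against 25.1, 21.7 and 18.0 CPM, and of the helicase gene Dhx9 (-0.96, SE 0.13, adjusted p = 0.00116), at 96.6, 85.3 and 90.2 CPM against 161, 173 and 169 CPM. Both were under the fold limit although their groups did not overlap.

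The same pair of lines was compared in lungs and spleens, 3 libraries against 3 in each. There 6401 of 19759 genes (32.4%) were called in lungs and 2949 of 18690 (15.8%) in spleens, the latter with 7.26% higher and 8.52% lower in 4T07. In lungs, 15.6% were higher and 16.8% lower. The immature neutrophil list had the same direction in all 3 tissues, with 18 of 19 genes higher in 4T07 lungs and 19 of 19 in spleens, at medians of 8.03 and 5.96 compared with 3.76 in scaffolds. Of the 616 genes higher in 4T07 scaffolds, 42.5% were also higher in 4T07 lungs, which was 9.09% of the 2882 genes higher in lungs and tested in scaffolds, and 18.7% were also higher in spleens, or 8.98% of 1281. Of the 688 genes lower in 4T07 scaffolds, 22.4% were also lower in lungs (5.62% of 2739) and 12.6% were higher there, and 3.2% were also lower in spleens (1.46% of 1508) and 16.7% were higher there. For the genes higher in scaffolds, the share lower in the other tissue was 5.68% in lungs and 8.93% in spleens. The difference between lines itself differed between scaffolds and lungs for 37.6% of genes and between scaffolds and spleens for 25.4% (adjusted p under 0.10, interaction term), with the scaffold value below the other tissue for 16.0% and 12.7%. For the respiratory chain it differed from lungs for 55 of 74 genes and from spleens for 62, with the scaffold value below the other tissue in each case. For ribosomal proteins it differed for 68 and 49 of 76 genes, again with the scaffold value below. Of 72 cell cycle genes, 70 were higher in 4T07 lungs and 10 in 4T07 spleens. The genes with the lowest p of this test at a level of at least 5 CPM in scaffolds were Wfdc17, H4c9 and Hebp1 against lungs and Ccl8, Emp3 and Lgals1 against spleens. Wfdc17, a small secreted protein of myeloid cells, was at 94.4, 73.5 and 107 CPM against 194, 361 and 211 CPM in scaffolds (-1.56, SE 0.25, adjusted p = 0.00207), whereas it was higher in 4T07 lungs by 4.46 on the log2 scale. Ccl8, a chemokine that attracts monocytes, did not pass the test in scaffolds (-0.59, adjusted p = 0.113) and was higher in 4T07 spleens by 5.80.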

How the data were processed

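RNA from whole tissues was sequenced with the QuantSeq 3' kit, and the authors deposited a table of raw read counts, 1 line per gene name and 1 column for each of the 45 libraries. The submitters' processing notes name Trim Galore 0.5.0, STAR 2.6.0 and featureCounts. The genome build, the annotation, the use of molecular identifiers and the treatment of strand and of reads with several matches are not given in the sources used here. The table has 55487 lines, and lines that repeat a symbol were summed. CPM are counts divided by the library total times 1000000.

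The 12 scaffold libraries were fitted together with edgeR 4.0.16 in R 4.3.3 (TMM normalization, quasi-likelihood test, 20011 genes with more than 10 counts over the 6 compared libraries), with Benjamini-Hochberg adjustment over all of them. Calls used the study's limits for scaffolds, an adjusted p under 0.10 and a fold over 2. Lungs and spleens were fitted in the same way, and the difference between tissues was tested as an interaction over 24 libraries. DESeq2 1.42.0, other scalings, filters and left-out libraries were alternatives. On simulated counts of 20402 genes the scaffold test recovered 92% of 200 changed genes, and 10.7% of its calls were unchanged genes. The changed genes were drawn from those above a count minimum, and the raised ones had a median fitted log2 fold change of 2.04. The spread was assumed, and no simulated library stood apart as library 22 did. These shares therefore need not hold for the data or for changes near the fold limit. Levels are given as 4T07 libraries 22, 23 and 24 against 67NR libraries 10, 11 and 12, and fold changes are fitted log2 differences of 4T07 minus 67NR with their standard error (SE).

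Genes were named by a rule: in each direction the 12 largest fold changes among called genes whose groups did not overlap and whose mean was at least 5 CPM, called members (up to 6) and the 2 most abundant members of each list, the genes of the signatures, and the 3 lowest p values of each test between tissues. Some genes outside it are named as such in the text or as members of a list count. Comparisons and lists were chosen with earlier results of these data known. Genes with no counts in a group were set against a floor of 3 counts over the group, and those with 1 to 3 counts are given as ratios with exact 95% binomial intervals. Floors and intervals cover counting error only. The study describes 3 mice per condition, and the labels neither name the mouse of a library nor link the tissues of a mouse, so libraries were treated as separate mice and p-values measure the spread between them. With 3 against 3, an exact two-sided permutation test of 1 gene cannot go below 0.1. No 2 libraries of a group were identical. Lengths are medians of protein-coding transcripts in GENCODE M1, matched by symbol.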

Additional observations from a re-analysis of the deposited data

Results flagged for a closer look

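The difference between 4T07 and 67NR was tested for a change between tissues, and the values here are the log2 difference in scaffolds minus that in lungs or spleens, with adjusted p values from edgeR's quasi-likelihood test of the interaction. They were picked from the genes with the largest changes in scaffolds and the lowest p values of the test, so their size is selected. Against lungs, Il1b (-3.32, adjusted p = 0.00148), Hcar2 (-2.52), Rpl22l1 (-3.84), Gm28438 (-2.41), Ndufb6 (-2.78), Ftl1 (-2.61), Timm8b (-2.81) and Trappc3 (-1.68) were lower in scaffolds relative to the difference in lungs. Il1b itself was higher in 4T07 lungs by 1.27 on the log2 scale and lower in 4T07 scaffolds. The granule genes Ngp (-2.94, adjusted p = 0.0791) and Mpo (-4.18, adjusted p = 0.0766) rose less in scaffolds than in lungs. Lor had a value of 12.04, which rests on 1 count in 67NR scaffolds and is no measured fold. Wfdc17 (-5.89, adjusted p = 8.66e-09), the histone gene H4c9 (-4.06) and the heme-binding gene Hebp1 (-2.32) had the lowest p values. Hebp1 was at 41.6, 41.7 and 42.2 CPM in 4T07 and at 65.6, 63.9 and 60.6 CPM in 67NR scaffolds.

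Against spleens, the values were -5.12 for Rpl22l1, -4.58 for Gm28438, -5.32 for Ndufb6, -4.91 for Ftl1, -1.96 for Gm14221, -3.50 for Timm8b, -2.76 for Trappc3 and -2.76 for Il1b. Ftl1 was higher in 4T07 spleens by 2.42 on the log2 scale (adjusted p = 0.0406). Ccl8 (-6.43, adjusted p = 1.18e-08), the membrane protein gene Emp3 (-2.89) and the galectin gene Lgals1 (-3.70) had the lowest p values. In scaffolds, Lgals1 was lower by 0.68 on the log2 scale (SE 0.19, adjusted p = 0.0344), under the fold limit, and its groups did not overlap.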

How the results depend on the processing

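No paired analysis was possible because the labels number each library once and share no replicate number between groups. In scaffolds, the 616 higher and 688 lower genes became 333 and 459 with at least 10 counts in every compared library and 1735 and 1644 with no fold limit. The lung count of 6401 became 3445 and 11088 under these settings, and the spleen count of 2949 became 1264 and 5714. The stricter filter tests fewer genes, and dropping the fold limit adds calls by construction. Leaving out 1 library gave between 375 and 673 higher and between 491 and 768 lower genes in scaffolds, with the fewest of both without the 67NR library 11. The cause was not tested. The same step gave between 5379 and 6915 genes in lungs, 2249 and 3116 in spleens, 6254 and 7798 for the difference between scaffolds and lungs, and 4008 and 5249 for that between scaffolds and spleens. DESeq2 called 489 genes higher and 609 lower in scaffolds. Without library 22, 65.6% of the higher and 77.3% of the lower calls remained. Scaling by totals only moved the median of all genes to 0.08. Of 5067 values of 245 named genes under the alternatives, 276 lost the call and 20 gained it. None went from a call in 1 direction to a call in the other. The fitted changes of some genes that were not called crossed 0, such as Gzma (-0.20 to 0.22) and Hp (-0.49 to 0.13). Of 2068 list counts, 278 moved by more than 1.5 times. Thinning to the smallest total and the length term were chosen after seeing the data, and gave 568 and 623 higher and 646 and 611 lower genes. A level under 0.367 CPM in library 22, or under 0.590 CPM in library 23, rests on 3 counts or fewer, and the limits of the other compared libraries lie between these.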

Other observations

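The counts of further lists in scaffolds stand against 3.08% of all genes higher and 3.44% lower. Of 24 endothelial genes, 2 were higher. Mmrn1, a protein of lymphatic vessels and platelets, was at 25.9, 18.5 and 2.95 CPM in 4T07 and at 1.29, 0.481 and 0.164 CPM in 67NR scaffolds (log2 fold change 4.54, SE 1.29, adjusted p = 0.0368), and Flt4, the lymphatic receptor VEGFR3, was at 11.0, 11.0 and 5.44 CPM against 4.99, 2.89 and 3.44 CPM (1.20, SE 0.40, adjusted p = 0.0664). The call of Mmrn1 was lost without library 11 or 12 and that of Flt4 without library 22, 23, 11 or 12, at adjusted p values of up to 0.135 and 0.220. None of 16 myofibroblast and mural cell genes, 16 circadian clock genes and 12 glucocorticoid response genes was called, and 1 of 16 Schwann cell and nerve genes was lower (S100b). Of 27 complement genes 2 were lower, of 22 chemokine receptor genes 2 were lower, of 40 hypoxia and glycolysis genes 4 were lower, of 35 regulators of epithelial-mesenchymal transition 1 was lower, and of 3 measured 4T1 tumor genes none was called. Lists with 1 member in each direction were those of class II presentation (18 genes), matrix proteases and inhibitors (38), angiogenesis (37), colony-stimulating factors and tumor necrosis factors (21), and immediate early and heat shock genes (24). Jund, a subunit of the AP-1 transcription factor, was at 51.5, 59.7 and 85.1 CPM against 24.8, 17.3 and 22.8 CPM (1.53, SE 0.31, adjusted p = 0.00601). Mmp8, the neutrophil collagenase, was at 56.5, 31.5 and 38.8 CPM against 15.7, 12.0 and 16.5 CPM (1.44, SE 0.28, adjusted p = 0.00479), and Mmp3 (stromelysin) fell by 1.03 on the log2 scale (SE 0.15, adjusted p = 0.00153), a change under the fold limit without library 22. Of 27 myeloid suppressor genes, 3 were higher and 3 lower, and of 21 mitochondrially encoded genes 4 were lower.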
